A study of Homo sapiens with 9 samples.

Results

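The genes described here serve the use of the amino acid glutamine and the transport of amino acids across the cell membrane. They are the 9 rows of the deposited RNA table named GLS2, GLUL, GLUD1, ASNS, SLC1A5, SLC7A5, SLC3A2, SLC7A11 and SLC43A1, out of 19706 usable gene symbols. They were chosen by name, with earlier results of these data known. Their counts and medians beside those of all genes are therefore a description and no independent test. Polyadenylated RNA was sequenced from 3 human neuroblastoma cell lines with 3 libraries each. Kelly and BE(2)C carry an amplified MYCN gene, and SH-SY5Y does not. All 9 libraries came from untreated cells grown in the same DMEM/F12:MEM mixture with 10% IFS and taken at 70% confluence. BE(2)C and SH-SY5Y are clonal sublines, and each group is 1 line, so effects of MYCN amplification and of the line itself cannot be told apart. No label states that a line's libraries were grown as separate cultures. The p-values therefore reflect library-to-library spread alone, and that spread may be technical.

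Glutamine enters cells mainly through exchangers of neutral amino acids, among them SLC1A5. Glutaminases split it into glutamate and ammonia, glutamate dehydrogenase turns glutamate into a citric acid cycle intermediate, and glutamine synthetase runs the first step backwards. SLC7A5 and SLC7A11 are light chains that reach the membrane as heterodimers with the heavy chain SLC3A2. The first pair exchanges glutamine for leucine and other essential amino acids, and the second exchanges glutamate for cystine. MYC-family factors are known to raise glutamine uptake and breakdown in many tumours.

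Values are scaled TPM: TPM, a length-corrected share of all transcripts, over gene entries alone, divided by a trimmed-mean factor for each library. The table gives no counts, so depth is unknown. Fold changes are differences of log2(scaled TPM + 1), first line minus second, and they understate changes of low genes. Where a call or a count below depended on scaling, its value is also given with library totals only (no trimmed-mean factor) or on values as deposited (TPM with spike-ins in the total). Levels as deposited are lower, so the same pseudocount of 1 shrinks changes of low genes more there. The fold changes of single genes outside the 9 move with these scalings too, and a value under another setting is given for those whose call or sign changed. MYCN averaged 5970 ± 77.6 in Kelly cells, 6050 ± 1090 in BE(2)C cells and 27.2 ± 1.01 in SH-SY5Y cells (SD, n = 3 each), and MYC was at 0.0960 ± 0.0930 in Kelly cells, 0.504 ± 0.175 in BE(2)C cells and 90.4 ± 0.950 in SH-SY5Y cells. Spike-in RNA took 83.7% to 90.6% of the deposited totals, and genes took 9.34% to 11% in Kelly cells, 13.2% to 15.5% in BE(2)C cells and 15.3% to 16.2% in SH-SY5Y cells. Mitochondrial genes took 16.5% to 19.8% of the gene total in Kelly cells, 24.5% to 35.3% in BE(2)C cells and 17.2% to 18.0% in SH-SY5Y cells. The spike-ins of Kelly stood apart, with an SD of log2 ratios of 0.304 to 0.370 in its 18 pairs with other lines. For BE(2)C paired with SH-SY5Y, 9 pairs gave 0.0583 to 0.0962. The largest shift of a single spike-in was 1.38 on the log2 scale between Kelly and SH-SY5Y, 1.20 between Kelly and BE(2)C and 0.175 between BE(2)C and SH-SY5Y. All 10 adrenergic markers were tested, with summed levels of 8750 to 10300 in Kelly cells, 7450 to 8180 in BE(2)C cells and 5630 to 5810 in SH-SY5Y cells. The 8 glial markers, 3 of them tested, summed to 2.67 to 5.26 in Kelly cells, 6.07 to 13.3 in BE(2)C cells and 2.71 to 4.24 in SH-SY5Y cells. All 4 hepatic and all 3 erythroid markers were under 1 in every library, and 3 of 4 leukocyte and 3 of 4 epithelial markers were as well. Some genes that every cell uses had very low values, such as HSPA8, a constitutive chaperone, at 1.91 ± 1.28 in Kelly cells, 11.7 ± 4.02 in BE(2)C cells and 3.98 ± 0.954 in SH-SY5Y cells (SD, n = 3 each). TUBB, a beta tubulin, averaged 29.6 ± 1.27 in Kelly cells and 24.5 ± 1.40 in BE(2)C cells, and its SH-SY5Y libraries were listed at 0.275, 0 and 0.414. It was thus near 0 in SH-SY5Y alone, the same direction as the transporter genes described next. Whether other genes were listed too low in the same way was not tested.

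The 4 genes of uptake and exchange, SLC7A5, SLC3A2, SLC1A5 and SLC7A11, were higher in both MYCN-amplified lines than in SH-SY5Y, with no overlap between libraries. How many of all tested genes separate in this way was not counted, so the separation is not read as particular to these genes. Of the 9 genes, 8 passed the filter of 1 or more in at least 3 libraries. In BE(2)C against SH-SY5Y, 5 of these 8 were called higher (limma, adjusted p under 0.05) and 0 lower, with 1 lower at an unadjusted p under 0.05. The split was 4 higher and 2 lower with library totals only and on values as deposited, and 5 and 2 with mitochondrial genes out of the total. Of all 13076 tested genes, 59.4% were called there, 28.6% higher and 30.7% lower. In Kelly against SH-SY5Y, 7 of 8 were called higher and 0 lower, with 0 lower at an unadjusted p under 0.05, and 4 and 0 on values as deposited. The background there was 55.3% called, 28.1% higher and 27.2% lower. In Kelly against BE(2)C, 4 of 8 were called higher and 2 lower (5 and 0 with library totals only, 3 and 2 as deposited), beside 52.5% of all genes called, 27.9% higher and 24.6% lower. The median log2 fold change over the 8 genes was 1.09 in BE(2)C and 1.14 in Kelly against SH-SY5Y, and 0.41 in Kelly against BE(2)C, while the medians over all tested genes in these comparisons were -0.04, -0.005 and 0.02. With library totals only the medians of the 8 were 0.63, 1.02 and 0.72 in these comparisons, and those of all genes -0.44, -0.13 and 0.31. On values as deposited the 8 had medians of 0.29, 0.39 and 0.14, and all genes -0.35, -0.43 and -0.05. Both comparisons with SH-SY5Y share its 3 libraries. SLC7A11, counted as higher in both, was at 0.516, 0.440 and 0.563 in SH-SY5Y and passed the filter through Kelly and BE(2)C alone. A gene that passes in this way could hardly be called lower against SH-SY5Y. Its higher calls are therefore no support for the splits or medians. In bulk RNA, fewer cells with a transcript and less of it per cell cannot be told apart.

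**Figure D1:**
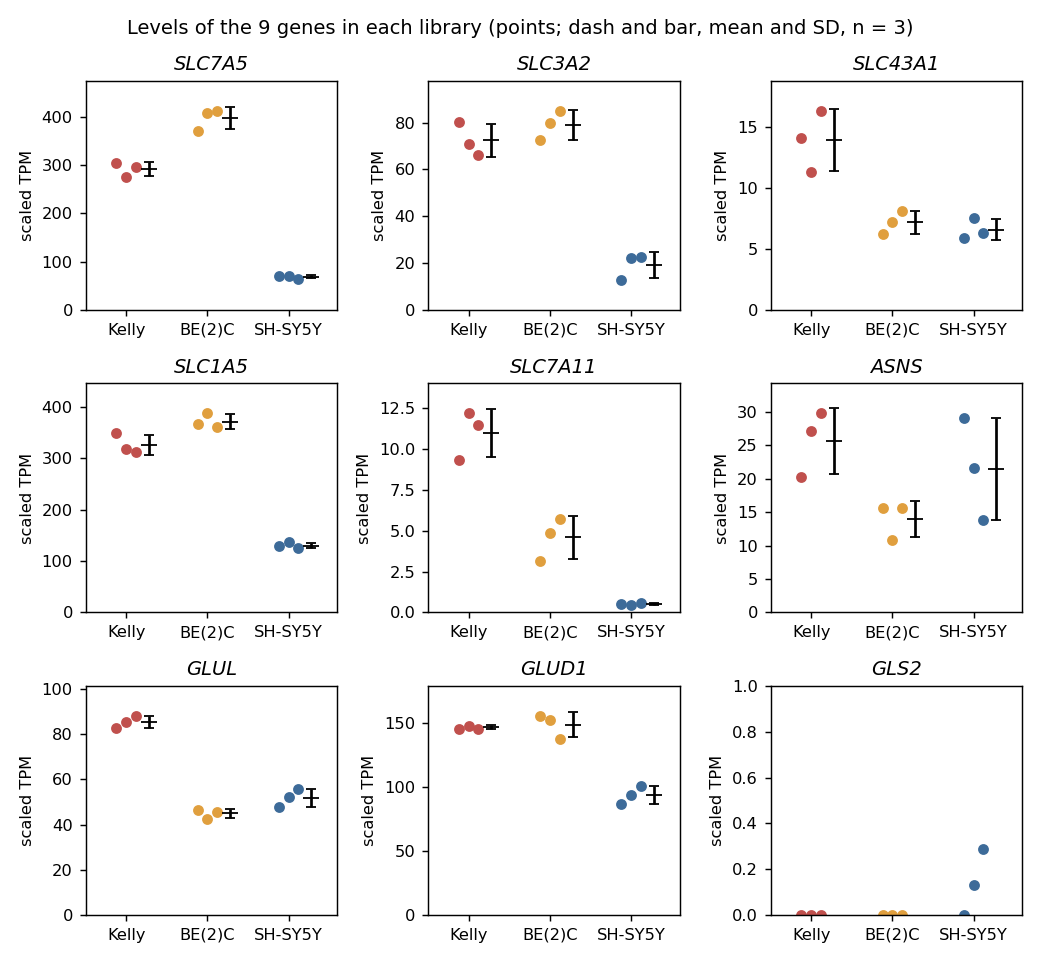
Each panel plots scaled TPM (vertical axis, from 0) of a gene in the 3 libraries of Kelly, BE(2)C and SH-SY5Y; points are libraries, and the dash and bar beside them are the mean and SD. SLC7A5, SLC3A2, SLC1A5 and SLC7A11 lie higher in all 6 Kelly and BE(2)C libraries than in all 3 SH-SY5Y libraries, whereas GLUL is higher in Kelly than in the other lines and GLS2 is near 0 throughout, so that its panel has no mean.

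SLC7A5 (ENSG00000103257, GRCh38 chr16:87830023-87869488, minus strand) encodes the light chain of the leucine and glutamine exchanger. It had 304, 276 and 296 scaled TPM in the Kelly libraries, 370, 408 and 412 in BE(2)C, and 69.8, 70.9 and 64.7 in SH-SY5Y. The 3 lines did not overlap, with BE(2)C highest and SH-SY5Y lowest. The log2 fold change was 2.52 ± 0.068 in BE(2)C against SH-SY5Y (SE; limma, adjusted p = 1.33e-08). Against SH-SY5Y, Kelly was higher by 2.08 ± 0.068 (adjusted p = 3.36e-08), or by 1.31 on values as deposited. Kelly was lower than BE(2)C, with a log2 fold change of -0.44 ± 0.068 (adjusted p = 5.36e-04), a call that ended with library totals only (-0.12, adjusted p = 0.229). As reported, both increases over SH-SY5Y exceeded the largest spike-in shift of their pair of lines, but the Kelly value as deposited did not, nor did the difference between Kelly and BE(2)C. Exons of the antisense gene AC126696.2 overlap SLC7A5, and how strand was treated in counting is not given in those sources that were used.

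The RefSeq promoter of SLC7A5 is shown as an example of a window that holds the canonical E-box CACGTG. MYC-family factors are known to bind these letters, and whether any of them acts on this gene in these lines was not tested. The stretch is the 250 bases before the transcript start in RefSeq's GRCh38.p14 table, minus strand, chr16:87869508-87869757, with the E-box in capitals. No exon of the GENCODE annotation lies in it.
SLC7A5: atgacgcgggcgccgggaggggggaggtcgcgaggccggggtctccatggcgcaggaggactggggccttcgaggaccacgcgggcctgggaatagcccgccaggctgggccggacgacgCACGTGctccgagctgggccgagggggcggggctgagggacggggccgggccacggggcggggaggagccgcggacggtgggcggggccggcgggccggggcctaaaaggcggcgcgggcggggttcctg

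Windows of 250 bases before to 50 after a start were at hand for 8 of the 9 genes, 15 windows in all, SLC7A11 being the gene without one. The E-box (CACGTG, a palindrome, so 1 search covers both strands) was in 3 of the 15, of SLC7A5, SLC1A5 and SLC43A1, and in 7.26% of all 35116 windows of the table. The letters TGATGNAA, searched on both strands as the core of the composite site of ATF4 and C/EBP factors, were in 3 windows, of ASNS, SLC1A5 and SLC3A2, and in 3.62% of all windows. The antioxidant response letters TGACNNNGC, also on both strands, were in 3 windows, of SLC7A5, SLC1A5 and SLC3A2, and in 13.3% of all. No match of 1 motif overlapped a match of another in these windows. The following stretches of 30 bases show 4 of these matches in capitals, as the SLC1A5 and SLC43A1 E-boxes and the ASNS and SLC1A5 composite cores, all read on the minus strand of GRCh38.p14. They are chr19:46787326-46787355, chr11:57515797-57515826, chr7:97872458-97872487 and chr19:46784893-46784922 in that order. The stretches of ASNS and SLC1A5 overlap annotated exons of those genes, and both SLC1A5 matches lie before alternative starts inside the gene.
SLC1A5 E-box: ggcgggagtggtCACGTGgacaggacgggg
SLC43A1 E-box: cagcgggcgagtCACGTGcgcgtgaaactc
ASNS composite: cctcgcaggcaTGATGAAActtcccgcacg
SLC1A5 composite: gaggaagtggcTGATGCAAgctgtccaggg
These matches describe letters only, and no binding was measured.

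SLC3A2 (ENSG00000168003, chr11:62856102-62888875, plus strand), the heavy chain shared by both heterodimers, had 80.1, 70.8 and 66.2 scaled TPM in Kelly cells, 72.4, 79.8 and 85.0 in BE(2)C cells, and 13.0, 22.2 and 22.7 in SH-SY5Y cells. Kelly and BE(2)C overlapped, and every library of both lay above SH-SY5Y. The increase over SH-SY5Y was 2.02 ± 0.191 in BE(2)C (adjusted p = 1.77e-05) and 1.89 ± 0.191 in Kelly (adjusted p = 3.11e-05), on the log2 scale. On values as deposited these were 1.26 and 1.01. As reported, both exceeded the largest spike-in shifts, and the Kelly value as deposited did not. Kelly against BE(2)C gave -0.13 ± 0.191 (adjusted p = 0.605), with a reversed sign of 0.19 under library totals only.

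SLC1A5 (ENSG00000105281, chr19:46774883-46788594, minus strand), a sodium-dependent exchanger of neutral amino acids that carries glutamine, had 348, 318 and 311 scaled TPM in Kelly cells, 366, 387 and 360 in BE(2)C cells, and 129, 136 and 125 in SH-SY5Y cells. No libraries of different lines overlapped. BE(2)C was higher than SH-SY5Y by 1.51 ± 0.063 (adjusted p = 1.18e-07) and Kelly by 1.32 ± 0.063 (adjusted p = 2.73e-07), or by 0.91 and 0.59 on values as deposited. The Kelly value lies within the largest spike-in shift for that pair of lines. Kelly was lower than BE(2)C, with a log2 fold change of -0.19 ± 0.063 (adjusted p = 0.0311), or -0.32 on values as deposited. That call ended under 6 alternatives besides library totals only, which reversed it to 0.13 (adjusted p = 0.164). They were mitochondrial genes out of the total, quantile normalization, the 6 libraries of these lines alone, and the loss of Kelly replicate 2, Kelly replicate 3 or BE(2)C replicate 2 (adjusted p = 0.0899, 0.101 and 0.101). Exons of other genes on the opposite strand overlap SLC1A5, so their reads cannot be told apart.

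SLC7A11 (ENSG00000151012, chr4:138164097-138242349, minus strand), the light chain of the cystine and glutamate exchanger, had 9.34, 12.2 and 11.5 scaled TPM in Kelly cells, 3.16, 4.88 and 5.75 in BE(2)C cells, and 0.516, 0.440 and 0.563 in SH-SY5Y cells. The lines were fully separate, with Kelly highest. The log2 fold change was 2.99 ± 0.211 in Kelly (adjusted p = 3.14e-06) and 1.87 ± 0.211 in BE(2)C (adjusted p = 5.73e-05) against SH-SY5Y. Kelly exceeded BE(2)C by 1.12 ± 0.211 (adjusted p = 0.00175), within the largest spike-in shift between these lines. All 3 calls held under the 19 alternatives run for each. As reported, both increases over SH-SY5Y exceeded the largest spike-in shifts. Their size depended on the pseudocount, which was 1 and above every SH-SY5Y level. Kelly against SH-SY5Y gave 4.19 with a pseudocount of 0.1, 0.996 with 10 and 0.997 on values as deposited. As deposited, SLC7A11 averaged only 1.18 in Kelly cells and 0.0880 in SH-SY5Y cells. In the last 2 settings the pseudocount was near or above the levels and shrank the change. Those 2 values are therefore not set against the spike-in shift. BE(2)C against SH-SY5Y gave 2.92, 0.471 and 0.490 in these settings, and Kelly against BE(2)C 1.27, 0.526 and 0.507. Exons of an antisense gene, SLC7A11-AS1, overlap SLC7A11, and reads of the pair cannot be told apart without strand.

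SLC43A1 (ENSG00000149150, chr11:57484534-57515786, minus strand), a facilitated transporter of branched-chain and other neutral amino acids, followed another pattern. It had 14.1, 11.3 and 16.3 scaled TPM in Kelly cells, 6.18, 7.24 and 8.10 in BE(2)C cells, and 5.87, 7.55 and 6.29 in SH-SY5Y cells. All Kelly libraries lay above the others, while BE(2)C and SH-SY5Y overlapped. Kelly was higher than BE(2)C by 0.86 ± 0.184 on the log2 scale (adjusted p = 0.00361), or by 0.43 on values as deposited and 0.47 with a pseudocount of 10. Kelly was also higher than SH-SY5Y by 0.97 ± 0.184 (adjusted p = 0.00171), but not on values as deposited (0.20, adjusted p = 0.145), and by 0.52 with a pseudocount of 10. Both differences lie within the largest spike-in shifts. BE(2)C against SH-SY5Y gave 0.11 ± 0.184 (adjusted p = 0.631), and the sign turned under library totals only (-0.29), on values as deposited (-0.22) and with mitochondrial genes out of the total (-0.08).

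Among the enzymes, the range of line means was 0.66 to 0.92 on the log2 scale for GLUD1, ASNS and GLUL, beside 0.97 to 2.99 for the 5 transporter genes. GLS2 (ENSG00000135423, chr12:56470944-56488414, minus strand), the glutaminase typical of liver and a known p53 target, was listed at 1.94e-07, 0 and 0 scaled TPM in Kelly, at 0 in all 3 BE(2)C libraries, and at 1.08e-11, 0.131 and 0.290 in SH-SY5Y. It did not pass the filter and was not tested.

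GLUD1 (ENSG00000148672, chr10:87050486-87094866, minus strand), the mitochondrial glutamate dehydrogenase, had 146, 148 and 146 scaled TPM in Kelly cells, 156, 153 and 138 in BE(2)C cells, and 86.8, 93.7 and 101 in SH-SY5Y cells. Kelly and BE(2)C overlapped and both lay above SH-SY5Y. BE(2)C was higher than SH-SY5Y by 0.66 ± 0.074 (adjusted p = 5.07e-05) and Kelly by 0.64 ± 0.074 (adjusted p = 7.36e-05). The Kelly increase lies within the largest spike-in shift for that pair of lines. Both calls depended on scaling: on values as deposited the changes were 0.09 (adjusted p = 0.568) and -0.06 (adjusted p = 0.682), and with library totals only BE(2)C gave 0.21 (adjusted p = 0.0939). Kelly against BE(2)C gave -0.02 ± 0.074 (adjusted p = 0.824), and 0.30 (adjusted p = 0.0271) with library totals only. GLUD2, a retrogene nearly identical to GLUD1, was listed at 0, 3.96 and 0.371 in Kelly cells, 0.0913, 0 and 0 in BE(2)C cells, and 0, 0.0810 and 0 in SH-SY5Y cells, so the split of reads between the copies is uncertain. Exons of SHLD2, listed as FAM35A, overlap GLUD1 on the other strand, and averaged 55.3 ± 7.71 in Kelly cells, 67.9 ± 6.92 in BE(2)C cells and 43.8 ± 9.75 in SH-SY5Y cells.

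GLUL (ENSG00000135821, chr1:182381704-182392206, minus strand), glutamine synthetase, had 82.9, 85.5 and 88.1 scaled TPM in Kelly cells, 46.3, 42.6 and 45.7 in BE(2)C cells, and 47.8, 52.1 and 55.8 in SH-SY5Y cells. Kelly stood above both other lines, and BE(2)C lay just below SH-SY5Y without overlap. Kelly was higher than BE(2)C by 0.92 ± 0.079 (adjusted p = 1.40e-05), a call that held under all 19 alternatives with values from 0.69 to 1.23. Kelly was higher than SH-SY5Y by 0.71 ± 0.079 (adjusted p = 5.86e-05), but not on values as deposited (0.0074, adjusted p = 0.964). Both values lie within the largest spike-in shifts. BE(2)C against SH-SY5Y gave -0.20 ± 0.079 (adjusted p = 0.0505), and the adjusted p over the alternatives ran from 7.87e-04 to 0.171. It was under 0.05 in 8 of 19, among them library totals only (-0.65), values as deposited (-0.68) and the loss of SH-SY5Y replicate 1 (-0.26, adjusted p = 0.0297). GLUL also marks astroglia in the brain. The glial markers SOX10, AQP4, ALDH1L1 and ERBB3 did not pass the filter. S100B was at 0 in all 3 Kelly libraries, and the levels of GFAP were 1.45 ± 1.19 in Kelly cells, 1.96 ± 0.961 in BE(2)C cells and 0.0487 ± 0.0429 in SH-SY5Y cells.

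ASNS (ENSG00000070669, chr7:97852118-97872542, minus strand), asparagine synthetase, which takes the amide nitrogen of glutamine, had 20.2, 27.1 and 29.8 scaled TPM in Kelly cells, 15.6, 10.8 and 15.6 in BE(2)C cells, and 29.1, 21.6 and 13.8 in SH-SY5Y cells. The SH-SY5Y libraries spread widely and overlapped with both other lines, while all Kelly libraries lay above BE(2)C. Kelly was higher than BE(2)C by 0.83 ± 0.267 (adjusted p = 0.0262), within the largest spike-in shift between these lines. The call ended without a filter (0.83, adjusted p = 0.0701), on values as deposited (0.50, adjusted p = 0.0989), and without Kelly replicate 2 (0.79), Kelly replicate 3 (0.72) or BE(2)C replicate 2 (0.67). BE(2)C against SH-SY5Y gave -0.55 ± 0.267 (adjusted p = 0.108), which passed without SH-SY5Y replicate 3 (-0.82, adjusted p = 0.0183), with library totals only (-0.98), on values as deposited (-0.82) and with mitochondrial genes out of the total (-0.75). Kelly against SH-SY5Y gave 0.29 ± 0.267 (adjusted p = 0.390), and -0.31 (adjusted p = 0.243) on values as deposited. Exons of another gene, AC079781.5, overlap ASNS on the same strand, so strand cannot tell their reads apart. ATF4, the factor known to induce ASNS and the genes of both light chains when amino acids run short, was at 873 ± 28.7 in Kelly cells, 987 ± 8.85 in BE(2)C cells and 295 ± 7.62 in SH-SY5Y cells (SD, n = 3 each).

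**Figure D2:**
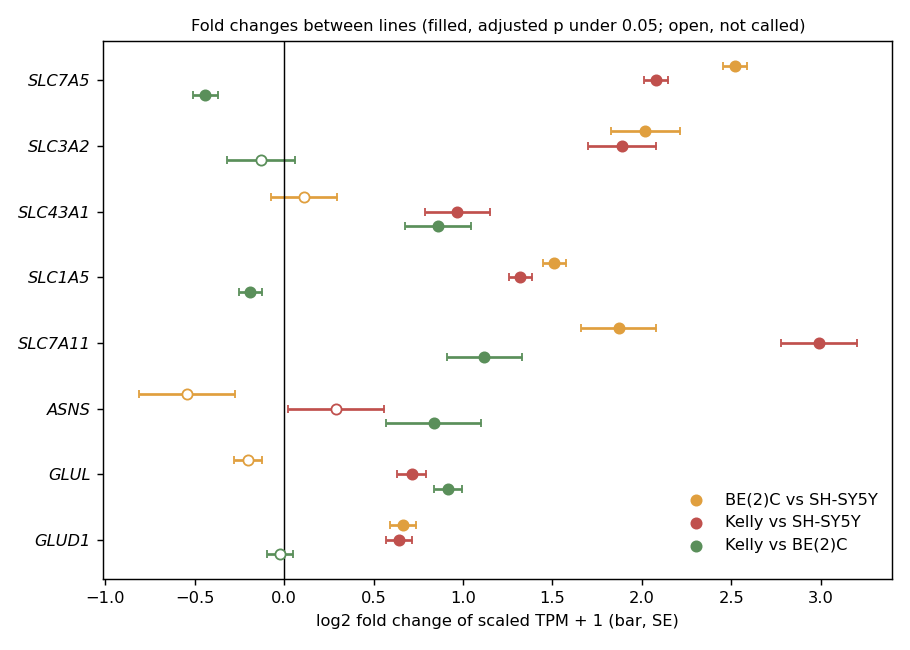
Log2 fold changes of scaled TPM + 1 (horizontal axis) for the 8 tested genes in 3 comparisons; bars are standard errors and open circles did not pass an adjusted p of 0.05. SLC7A5, SLC3A2, SLC1A5 and SLC7A11 lie between 1.32 and 2.99 in both comparisons with SH-SY5Y, while GLUL, SLC43A1, ASNS and SLC7A11 lie between 0.83 and 1.12 in Kelly against BE(2)C.

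On the per-length scale of TPM, the order of levels differed between lines. SLC1A5 and SLC7A5 were the highest of the 9 in Kelly (326 and 292) and in BE(2)C (371 and 397), and in BE(2)C alone their libraries overlapped. In SH-SY5Y, SLC1A5 (130) was followed by GLUD1 (93.8) and SLC7A5 (68.5), with no overlap. SLC3A2 ranked above GLUL in BE(2)C (79.1 against 44.9), below it in Kelly (72.4 against 85.5), and below both GLUL (51.9) and ASNS in SH-SY5Y, where it overlapped with ASNS (19.3 against 21.5). SLC43A1 and SLC7A11 ranked just above GLS2 in every line, and their libraries overlapped in Kelly alone.

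Ratios of 2 genes within a library do not depend on its scaling, except through the pseudocount, here 1. The log2 ratio of SLC7A5 to SLC3A2 averaged 2.00 ± 0.125 in Kelly cells, 2.31 ± 0.0434 in BE(2)C cells and 1.82 ± 0.463 in SH-SY5Y cells (SD, n = 3 each), and SH-SY5Y overlapped with both other lines. SLC7A11 to SLC3A2 averaged -2.62 ± 0.308 in Kelly cells, -3.86 ± 0.245 in BE(2)C cells and -3.71 ± 0.441 in SH-SY5Y cells. Its Kelly libraries, from -2.97 to -2.43, lay above all others, while BE(2)C and SH-SY5Y overlapped. The order of the last 2 rests on the pseudocount, because SLC7A11 was below 1 in SH-SY5Y. With no pseudocount, a setting chosen after seeing the data, the ratio averaged -2.72 ± 0.327 in Kelly cells, -4.14 ± 0.330 in BE(2)C cells and -5.21 ± 0.513 in SH-SY5Y cells. SH-SY5Y, from -5.66 to -4.65, was then the lowest line, with no overlap. SLC1A5 to SLC7A5 was 0.16 ± 0.0717 in Kelly cells, -0.09 ± 0.0919 in BE(2)C cells and 0.92 ± 0.0314 in SH-SY5Y cells, with SH-SY5Y apart from both. These ratios are given as a description and were not tested.

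**Figure D3:**
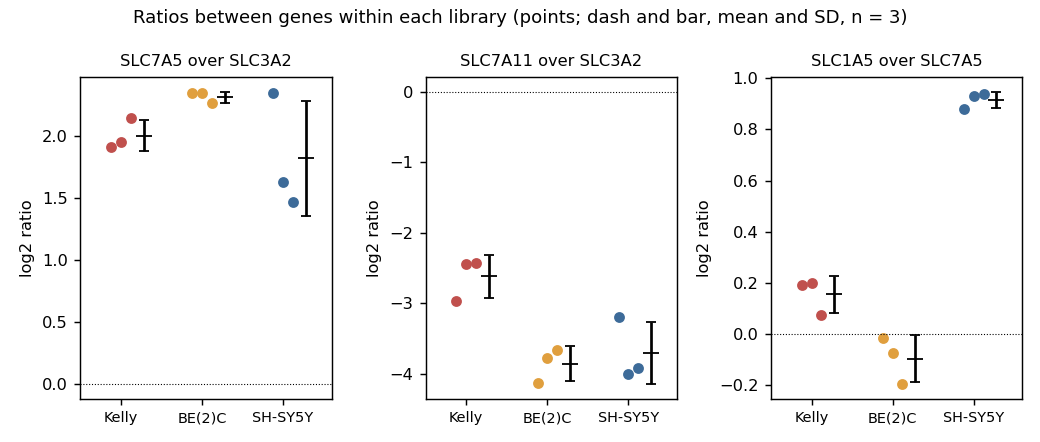
Log2 ratios of scaled TPM + 1 between pairs of genes (vertical axis, different in each panel) in the 3 libraries of Kelly, BE(2)C and SH-SY5Y; the dash and bar are the mean and SD, and the dotted line marks equal levels. SLC1A5 over SLC7A5 averages 0.16 in Kelly cells, -0.09 in BE(2)C cells and 0.92 in SH-SY5Y cells, with SH-SY5Y above every library of both other lines. Without a pseudocount SLC7A11 over SLC3A2 is lowest in SH-SY5Y, at -5.21.

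Among the 13068 other tested genes, those with the pattern over the 9 libraries nearest to SLC7A5 were CBX6, CHRNA3 and BCAT1. Likeness was the root mean square difference of log2 values centred on each gene's mean, and it was 0.0779, 0.0899 and 0.0920. BCAT1, a cytosolic aminotransferase of branched-chain amino acids, averaged 172 ± 11.4 in Kelly cells, 226 ± 7.37 in BE(2)C cells and 40.2 ± 0.948 in SH-SY5Y cells. The nearest to SLC7A11 were TEF (0.207), SLITRK5 (0.209) and HIC2 (0.232), and the nearest to SLC3A2 were MVD (0.195), PRRT2 (0.209) and SLC39A14 (0.222). The 9 libraries fall into 3 lines, so a like pattern rests on 3 line means.

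In all, 5 lists of related genes were read from the same fit, by counts called and median log2 fold change. The lists share some genes, such as PSAT1, GPT2, CTH, CBS, GCLM and SESN2, so their splits are not separate observations. Splits are given as higher and lower, first as reported, then with library totals only, then on values as deposited, where the splits of all genes also moved. Of the calls over all genes, 48.2% were higher in BE(2)C against SH-SY5Y as reported, 23.8% with library totals only and 18.9% as deposited. For Kelly against SH-SY5Y the shares were 50.8%, 41.6% and 15.1%, and for Kelly against BE(2)C 53.2%, 74.2% and 43.2%.

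Genes of the amino acid response (ATF4, the kinases and initiation factor upstream of it, and its known targets) were higher in BE(2)C cells than in SH-SY5Y for 22 of 39 tested and lower for 4 (14 and 9, then 13 and 9), with a median of 0.76. In Kelly against SH-SY5Y 17 were higher and 7 lower (15 and 8, then 11 and 17), with a median of 0.39. In Kelly against BE(2)C 7 were higher and 19 lower (11 and 9, then 4 and 20), with a median of -0.34. ATF4 itself was higher by 1.74 ± 0.049 in BE(2)C and by 1.56 ± 0.049 in Kelly against SH-SY5Y, and lower in Kelly than in BE(2)C by -0.18 ± 0.049 (adjusted p = 0.0144). That last call ended without Kelly replicate 2 (-0.15), without mitochondrial genes (-0.10) and with quantile normalization (-0.03), and the sign turned with library totals only (0.15, adjusted p = 0.126). CEBPB, which encodes a partner factor of ATF4, was higher in BE(2)C (2.66 ± 0.11) and in Kelly (2.33 ± 0.11) against SH-SY5Y. ALDH1L2, a mitochondrial folate enzyme, was higher in BE(2)C (2.28 ± 0.20), and the stress factor gene ATF3 was higher in Kelly (2.03 ± 0.27). VLDLR was lower in BE(2)C (-2.08 ± 0.22) and in Kelly (-1.64 ± 0.22), as were the alanine aminotransferase gene GPT2 in BE(2)C (-0.89 ± 0.089) and EIF2AK3, a kinase gene upstream of ATF4, in Kelly (-1.15 ± 0.19). Between Kelly and BE(2)C, CTH (1.0 ± 0.28) and TRIB3 (0.80 ± 0.19) were higher, and STC2 (-2.85 ± 0.28) and CBS (-1.74 ± 0.48) were lower.

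Other enzymes of glutamine and glutamate were higher in BE(2)C cells than in SH-SY5Y for 15 of 36 tested and lower for 7 (7 and 13, then 6 and 14), with a median of 0.22. Kelly against SH-SY5Y gave 16 higher and 8 lower (15 and 9, then 4 and 17; median 0.21), and Kelly against BE(2)C 11 and 10 (17 and 6, then 6 and 11; median 0.07). BCAT1 led those higher in BE(2)C (2.46 ± 0.066) and in Kelly (2.07 ± 0.066). The serine pathway enzyme gene PSAT1, which uses glutamate as its amino donor, was higher in BE(2)C (1.48 ± 0.069) and the mitochondrial BCAT2 in Kelly (1.47 ± 0.18). GFPT1, which opens the hexosamine pathway with glutamine, was lower in BE(2)C cells than in SH-SY5Y (-0.94 ± 0.15) and higher in Kelly than in BE(2)C (1.07 ± 0.15). Lower in Kelly than in SH-SY5Y were NADSYN1 (-1.79 ± 0.59) and CCBL1 (-1.32 ± 0.34). The NADSYN1 call ended with no filter (-1.79, adjusted p = 0.0840) and without Kelly replicate 2 (-1.22), SH-SY5Y replicate 1 (-1.72) or SH-SY5Y replicate 3 (-1.68). GCLM, the modifier subunit of glutathione synthesis, was higher in Kelly than in BE(2)C (1.19 ± 0.25), and CCBL1 (-1.69 ± 0.34) and the proline enzyme gene PYCRL (-1.24 ± 0.25) were lower.

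Other amino acid transporters split 11 higher and 10 lower among 33 tested in BE(2)C against SH-SY5Y (6 and 15, then 4 and 15; median 6.12e-04). They split 14 and 9 in Kelly against SH-SY5Y (13 and 11, then 7 and 16; median 0.32) and 12 and 8 in Kelly against BE(2)C (16 and 3, then 12 and 9; median 0.03). SLC7A2, a carrier of cationic amino acids, was at 46.7 ± 3.8 in Kelly cells, 173 ± 31.2 in BE(2)C cells and 3.48 ± 0.118 in SH-SY5Y cells, the largest increase of the list in BE(2)C (5.27 ± 0.13). The glutamine carrier gene SLC38A5 was at 30.2 ± 4.16 in Kelly cells, 0.264 ± 0.394 in BE(2)C cells and 0.243 ± 0.246 in SH-SY5Y cells, and rose by 4.66 ± 0.25 in Kelly against each of them. SLC6A17 (4.39 ± 0.16 against SH-SY5Y) and SLC43A3 (3.28 ± 0.40 against BE(2)C) were also higher in Kelly, and SLC7A6 was higher in BE(2)C cells than in SH-SY5Y (1.20 ± 0.13). SLC38A5 passed the filter through Kelly alone. SLC6A17, at 0.0468 ± 0.0412 in SH-SY5Y, passed without that line. The filter thus favoured their higher calls. SLC1A4, a relative of SLC1A5 for small neutral amino acids, was lower in BE(2)C cells than in SH-SY5Y (-1.92 ± 0.19). SLC38A10 was lower than in SH-SY5Y in BE(2)C (-0.93 ± 0.089) and in Kelly (-1.06 ± 0.089), and the mitochondrial glutamate carrier gene SLC25A22 was lower in Kelly (-0.80 ± 0.13). SLC3A1, the heavy chain of another exchanger, was lower in Kelly than in BE(2)C (-1.06 ± 0.30), a call that ended without Kelly replicate 2 (-0.87), beside SLC7A2 (-1.86 ± 0.13).

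Cystine, glutathione and NRF2 genes, which use the cystine that SLC7A11 brings in, were higher for 15 of 33 tested and lower for 4 in BE(2)C against SH-SY5Y (5 and 8, then 3 and 8; median 0.36). They were higher for 18 and lower for 2 in Kelly against SH-SY5Y (15 and 3, then 6 and 13; median 0.65), and 18 and 6 in Kelly against BE(2)C (20 and 4, then 11 and 7; median 0.39). The NRF2 target HMOX1, heme oxygenase, was higher in Kelly than in SH-SY5Y (3.98 ± 0.21) and than in BE(2)C (2.26 ± 0.21). AIFM2, a suppressor of lipid peroxidation, was higher in Kelly (2.11 ± 0.15) and in BE(2)C (1.18 ± 0.15) than in SH-SY5Y, and thioredoxin, TXN, in BE(2)C (1.24 ± 0.068). SRXN1 (-0.96 ± 0.11) and GPX1 (-0.44 ± 0.069) were lower in BE(2)C cells than in SH-SY5Y. The lipid peroxide reductase gene GPX4 (-0.95 ± 0.18) and ACSL4 (-0.75 ± 0.097) were lower in Kelly than in SH-SY5Y, and ACSL4 was also lower in Kelly than in BE(2)C (-1.58 ± 0.097).

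Genes of amino acid sensing by mTORC1, the kinase complex that leucine and glutamine activate, split 10 higher and 12 lower among 41 tested in BE(2)C against SH-SY5Y (4 and 18, then 2 and 19; median -0.06). They split 9 and 10 in Kelly against SH-SY5Y (7 and 10, then 4 and 22; median 0.08) and 13 and 6 in Kelly against BE(2)C (18 and 2, then 7 and 6; median 0.17). SESN3, of the sestrin family of sensors, was higher than in SH-SY5Y in BE(2)C (1.42 ± 0.11) and in Kelly (1.93 ± 0.11). ITFG2 was higher in BE(2)C (0.82 ± 0.14), but not on values as deposited (0.22, adjusted p = 0.183), and FNIP2 in Kelly (1.26 ± 0.14). C7orf60, the SAM sensor SAMTOR, was lower in BE(2)C (-1.60 ± 0.18) and in Kelly (-2.11 ± 0.18), as were GATSL2 in BE(2)C (-1.44 ± 0.40) and the lysosomal anchor gene LAMTOR2 in Kelly (-1.83 ± 0.12). Between Kelly and BE(2)C, GATSL2 (1.45 ± 0.40) and SEH1L (1.25 ± 0.18) were higher, and LAMTOR1 (-0.66 ± 0.055) and EIF4EBP1 (-0.60 ± 0.064) were lower.

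**Figure D4:**
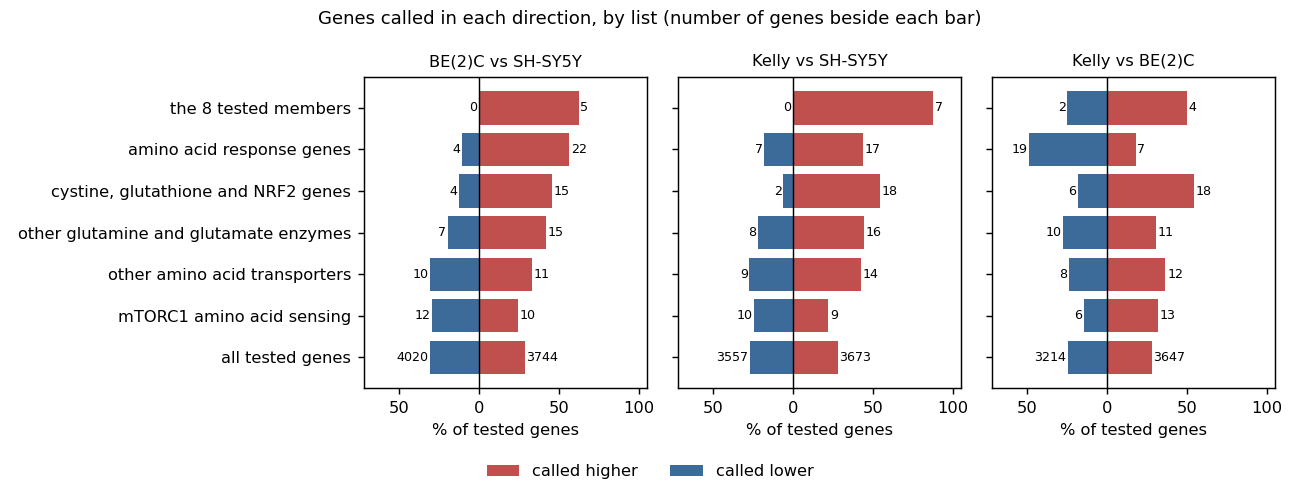
Share of the tested genes of each list called higher (right, red) and lower (left, blue) in each comparison, with the number of genes beside each bar and all tested genes in the bottom row. Of the 39 amino acid response genes, 22 are higher and 4 lower in BE(2)C against SH-SY5Y, while 7 are higher and 19 lower in Kelly against BE(2)C, where library totals only give 11 and 9.

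**Figure D5:**
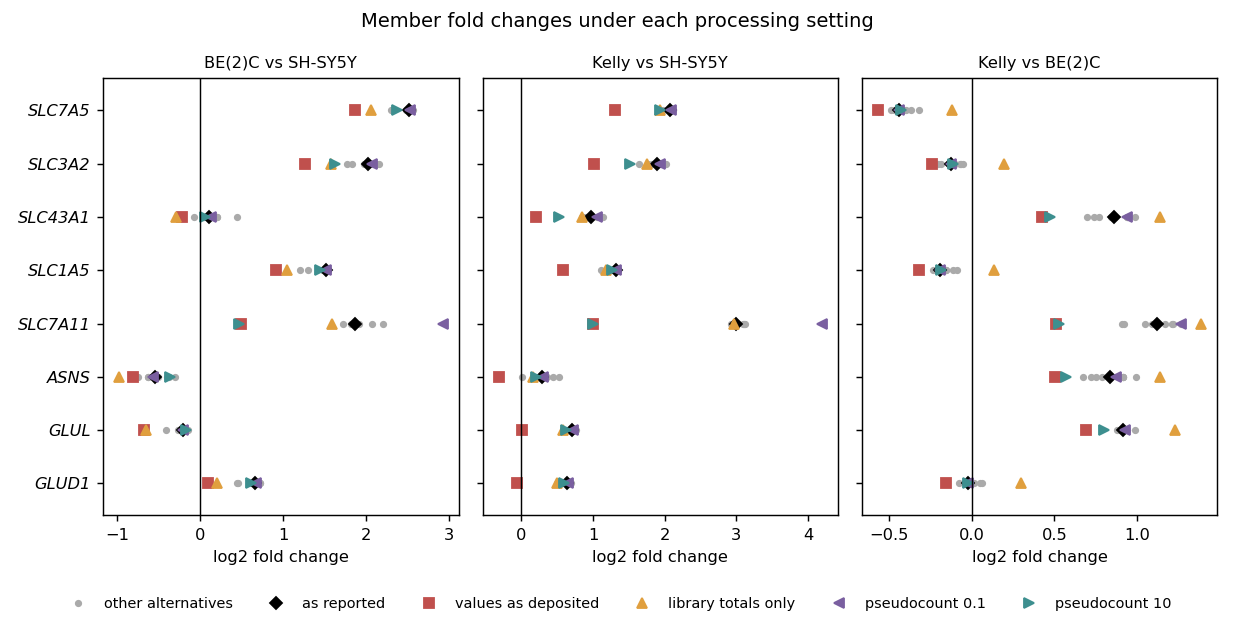
Log2 fold change (horizontal axis) of the 8 tested genes under the reported processing (black) and each alternative (coloured or grey points), a panel for each comparison. SLC7A5, SLC3A2, SLC1A5 and SLC7A11 stay above 0 against SH-SY5Y under every alternative run, from 0.471 to 4.19, whereas SLC43A1 in BE(2)C and GLUD1 in Kelly against SH-SY5Y fall on both sides of 0.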

How the data were processed

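The members and gene lists were chosen with earlier results of these data known, as were the tests and alternatives. The authors deposited log10 values, read here as log10(TPM + 1) because the library sums of the back-transformed values lie at 966592 to 980009. HISAT 0.1.6, Salmon 0.3.2 and the build GRCh38 are listed, without roles, per the submitters' processing notes. Of 19837 rows, 92 are spike-ins, 11 are reporter or selection markers and 28 hold a date in place of a symbol; the last stayed in totals and out of tests. The number of unused columns of values is 0. Back-transformed values were rescaled to the total over genes and divided by trimmed-mean factors (trimming 30% of the ratios and 5% of the levels from either end), from 0.758 to 1.17. limma 3.58.1 in R 4.3.3 (trend method) was run on log2(scaled TPM + 1) over the 13076 genes that reached 1 in 3 libraries, with all 9 libraries in 1 fit and no block. Benjamini-Hochberg adjusted p-values under 0.05 across all tested genes count as called, two-sided. This scale understates changes of low genes. From each list, up to 2 called genes higher and 2 lower with the largest change and at least 10 scaled TPM in the higher line were named in each comparison; the 3 most like genes were named for the 3 members with the largest range. Some other named genes are not reported here. The fit was tested on simulated data. Gene positions are GENCODE release 29, and promoters are RefSeq's. Alternatives covered pseudocount, filter, scaling, block, the libraries fitted and each library left out.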

Additional observations from a re-analysis of the deposited data

How the results depend on the processing

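Of 24 member fold changes, 11 kept their direction and call under all 19 alternatives, among them SLC7A5, SLC3A2, SLC1A5 and SLC7A11 against SH-SY5Y. Over 456 member values, 417 kept both, 16 lost the call, 12 gained it and 11 reversed. Other scalings shifted the median of all genes in BE(2)C against SH-SY5Y by -0.40 (library totals only), -0.31 (values as deposited) and -0.19 (mitochondrial genes out of the total), in Kelly against SH-SY5Y by -0.12, -0.43 and -0.13, and in Kelly against BE(2)C by 0.28, -0.07 and 0.07. Reversed values were, with library totals only, SLC43A1 -0.29 in BE(2)C against SH-SY5Y, and GLUD1 0.30, SLC1A5 0.13 and SLC3A2 0.19 in Kelly against BE(2)C. As deposited they were SLC43A1 -0.22 in BE(2)C, and GLUD1 -0.0636 and ASNS -0.31 in Kelly against SH-SY5Y. Without mitochondrial genes they were SLC43A1 -0.0769 in BE(2)C against SH-SY5Y and GLUD1 0.0517 in Kelly against BE(2)C, and with quantile normalization GLUD1 0.0619. With a library left out, GLUD1 in Kelly against BE(2)C ran from -0.0764 to 0.0124 (without BE(2)C replicate 1). Among 60 changes of ATF4 and named list genes, refitted under the same alternatives after the data were seen, 56 kept direction and call. The others were NADSYN1, SLC3A1, ITFG2 and, between Kelly and BE(2)C, ATF4, which turned to 0.147 with library totals only.

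The 0 members lower in BE(2)C than in SH-SY5Y became 1 with a pseudocount of 0.1, no filter, a filter of 5 or quantile normalization, 2 with library totals only, as deposited or without mitochondrial genes, and 0 to 1 with a library left out. The 2 members lower in Kelly than in BE(2)C became 0 with library totals only, 1 without mitochondrial genes, with quantile normalization or with the 6 libraries of these lines alone, and 1 to 2 with a library left out. The 7 members called in Kelly against SH-SY5Y, all higher, became 4 as deposited. Over all genes, library totals only gave 1905 higher and 6099 lower in BE(2)C against SH-SY5Y and 1796 lower in Kelly against BE(2)C. Values as deposited gave 1547 higher and 6639 lower in BE(2)C, and 1324 higher and 7457 lower in Kelly, against SH-SY5Y. Calls over the cystine list in BE(2)C against SH-SY5Y were 11 as deposited. The cause of these changes was not tested, other than the scaling that defines them.

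The labels number the libraries 1 to 3 in each line. Deviations of same-numbered libraries from their line means correlated at -0.0545 to 0.0266 (9 pairs), and those of differently numbered libraries at -0.0383 to 0.0407 (18 pairs). No deviation shared by number was thus seen. With 3 libraries in each line, these values cannot settle whether same-numbered libraries were handled together. With the replicate number as a block, 7544 genes were called in BE(2)C and 6980 in Kelly against SH-SY5Y, and 6634 in Kelly against BE(2)C, and no member changed its call. Depth is unknown.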
